A study of Mus musculus with 24 samples.

Results

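The 6 genes described here encode the 3 TGF-beta ligands (Tgfb1, Tgfb2, Tgfb3), the secreted proteinase BMP1 (Bmp1) and the matricellular proteins CCN1 and CCN2 (Ccn1 and Ccn2, older names Cyr61 and Ctgf). They were taken by name, with earlier results of these data known, and with every probe set that the gene table of the array gives for them. The array held 8 such probe sets among 12488, and the 6 genes were 6 of the 8251 with a probe set of their own. All 6 genes and 7 of the 8 probe sets passed the filter on low signals, as did 5662 genes and 7417 probe sets in all.

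RNA came from mouse embryonic fibroblasts, a primary culture of connective tissue cells from the embryo. The cells were wild type or lacked CHOP, a transcription factor encoded by Ddit3 and raised when the kinase PERK senses unfolded proteins. Cells of each genotype were untreated or had tunicamycin, an inhibitor of N-linked glycosylation that loads the endoplasmic reticulum with unfolded protein, at 2 µg/ml for 4 h or 8 h. Each of these 6 groups held 4 arrays, lettered A to D, so there were 24 arrays. The labels give passage 3 for 3 of the arrays, and they give neither a time nor a solvent for the untreated cells, so an effect of tunicamycin cannot be told apart from one of time or handling. They also do not tie the arrays of a group to separate cultures or embryos, and every p-value therefore measures the spread between these samples, which may be technical.

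TGF-beta ligands are secreted in a latent form, held by their own propeptide and by latent TGF-beta binding proteins in the matrix, and once freed they bind a pair of serine-threonine kinase receptors that phosphorylate Smad proteins. BMP1 is an astacin metalloproteinase that cuts the C-terminal propeptides of fibrillar procollagens and also cleaves lysyl oxidase, chordin and latent TGF-beta binding protein. CCN1 and CCN2 are cysteine-rich matrix-associated proteins that bind integrins and proteoglycans, and in fibroblasts their transcripts respond quickly to serum, to TGF-beta and to YAP acting through TEAD factors.

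Per the RefSeq gene table for GRCm38.p6, Tgfb1 lies at chr7:25687002-25705077, Tgfb2 at chr1:186622787-186709697 and Tgfb3 at chr12:86056743-86079041. Bmp1 lies at chr14:70474555-70520716, Ccn1 at chr3:145646971-145649985 and Ccn2 at chr10:24595442-24598683. The 6 genes are on 6 different chromosomes.

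RefSeq promoter sequences were matched for 3 of the 6, Tgfb1, Tgfb2 and Ccn1. Tgfb3, Bmp1 and Ccn2 had no entry there, so the promoters shown were not chosen by response. Tgfb2 and Ccn1 were called lower after 8 h of tunicamycin in both genotypes, while no such change was called for Tgfb1. A link between motifs and these changes was not tested. Each line gives the 250 bases before the start site, 5′ to 3′ on the gene's strand, with every match of a searched motif in capitals.
Tgfb1, chr7:25686752-25687001, plus strand: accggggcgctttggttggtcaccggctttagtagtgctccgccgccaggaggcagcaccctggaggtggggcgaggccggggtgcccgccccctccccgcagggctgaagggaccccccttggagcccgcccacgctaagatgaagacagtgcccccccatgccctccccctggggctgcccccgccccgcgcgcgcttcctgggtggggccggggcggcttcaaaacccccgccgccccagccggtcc
Tgfb2, chr1:186705990-186706239, minus strand: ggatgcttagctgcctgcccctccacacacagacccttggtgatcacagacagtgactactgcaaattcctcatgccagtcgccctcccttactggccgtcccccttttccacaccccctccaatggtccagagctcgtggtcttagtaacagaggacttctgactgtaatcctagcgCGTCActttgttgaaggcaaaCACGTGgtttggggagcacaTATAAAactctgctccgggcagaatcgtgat
Ccn1, chr3:145649986-145650235, minus strand: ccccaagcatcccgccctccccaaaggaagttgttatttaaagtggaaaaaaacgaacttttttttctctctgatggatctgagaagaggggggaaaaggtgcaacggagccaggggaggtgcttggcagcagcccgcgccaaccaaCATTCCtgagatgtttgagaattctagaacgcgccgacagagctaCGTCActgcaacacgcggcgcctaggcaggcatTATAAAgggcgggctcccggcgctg
Within the annotated span of Tgfb2, that start site lies inside the gene and not at its edge. The window searched ran from 250 bases before to 50 bases after the start, on both strands, and 10 motifs were searched. Tgfb2 held the TATA box TATAAA at position -31, the E-box CACGTG at -51 and the CRE core TGACG, on the reverse strand, at -72. Ccn1 held TATAAA at -25, the CRE core on the reverse strand at -58 and the TEAD motif GGAATG on the reverse strand at -103. No match of the 10 was in the Tgfb1 window, whose 250 printed bases had a GC content of 75.2%, against 53.6% for Tgfb2 and 54.8% for Ccn1. Of 32851 promoters of the same length, 13.6% held TATAAA, 7.15% CACGTG, 20.8% TGACG and 14.7% GGAATG, and no match overlapped another. The other motifs had no match in the 3 windows. They were the AP-1 site TGANTCA (7.81% of promoters), the CHOP-ATF composite TGATGNAAN (3.95%), the ER stress response elements ERSE (0.119%) and ERSE-II (0.0365%), the SMAD palindrome GTCTAGAC (0.213%) and the CArG box (1.63%).

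The deposited values were linear signals, and the array medians ran from 48.2 to 72.6. Ddit3 itself was checked first: its mean signal was 299.6, 3652 and 4383 in wild type cells untreated, at 4 h and at 8 h, against 14.68, 31.58 and 20.5 in CHOP-/- cells. Two-sided exact permutation tests between the genotypes gave p = 0.0286 untreated, at 4 h and at 8 h, and 4 arrays against 4 cannot give less. Fibroblast markers were abundant (13 of 14 listed genes on the array, with Col1a1 at 5558.2 to 10599), although the Vim probe set was under the filter signal of 28.6 on 20 arrays. Smooth muscle markers were abundant too, with Acta2 at 3301.7 to 6287.5, Tagln at 4762.7 to 8443.5 and Cnn1 at 1351 to 2996. The others of that list were dimmer, Myh11 at 109.7 to 380.5, Smtn at 86.2 to 286.7 and Des at 9.2 to 165.4. Of 6 epithelial markers Epcam was under 28.6 on all 24 arrays, while Cdh1, at 70.8 to 180.2, was above it on all. Of 6 endothelial markers Cdh5, Tek and Vwf were under 28.6 on all 24 arrays, and Flt1 was 75.3 to 309.1. Of 6 neural markers Snap25 was under 28.6 on every array, while Nes, Ncam1 and Tubb3 started at 533, 630 and 1007. Leukocyte markers (7 of 8 on the array) stood apart in wild type arrays A and B at all 3 times: their summed signal was 1929 to 3627 there, 460.9 to 816.5 in wild type arrays C and D and 417.5 to 1388 in CHOP-/- arrays. Among these markers Lyz2 ran from 32.7 to 1563.4, Cd14 from 296.5 to 1375.2 and Csf1r from 35.5 to 442. Cd68, Adgre1 and Itgam reached 128.1, 180.5 and 90.3. Ptprc was dimmer, at 0.7 to 32.9, and like Lyz2 it was highest in wild type array B at 4 h. Arrays A and C of wild type cells at 4 h had medians at 0.268 and -0.274, on the log2 scale, from the mean of all medians.

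**Figure D1:**
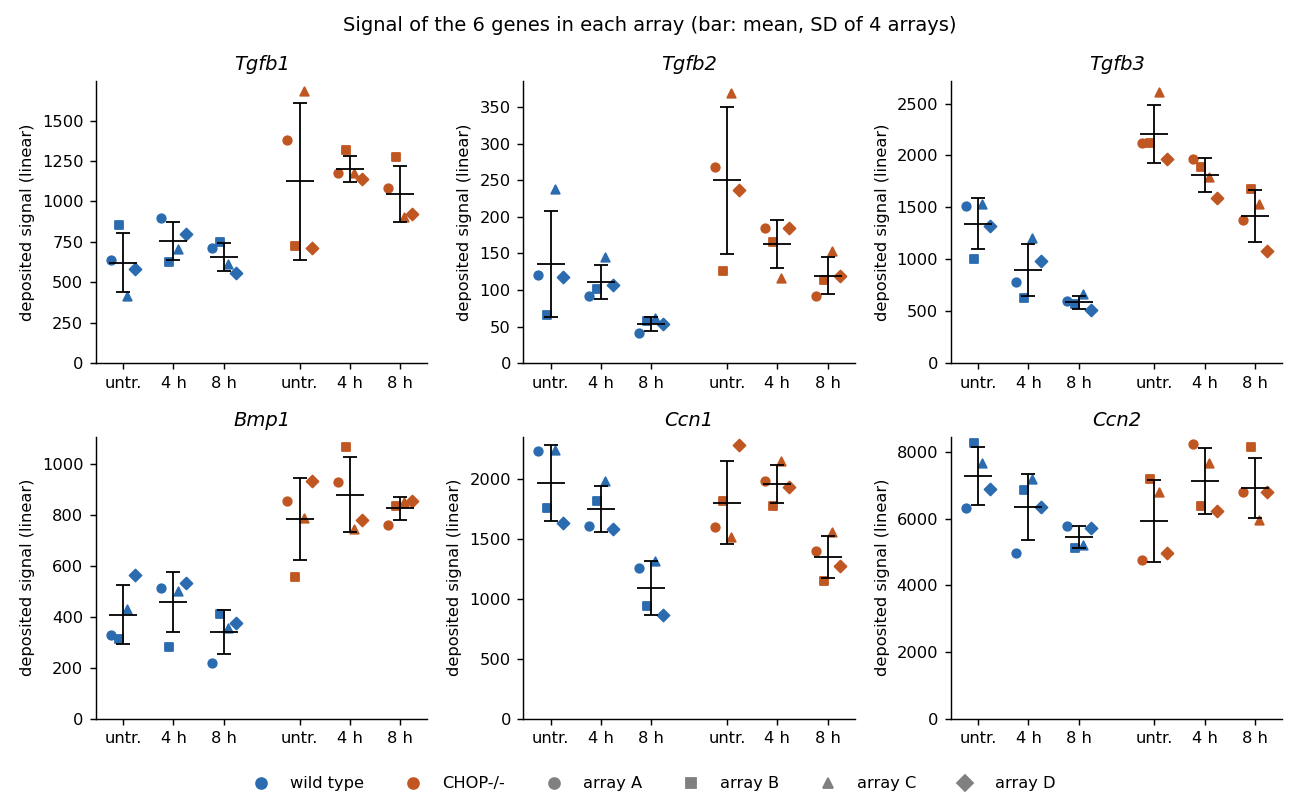
Deposited linear signal (vertical axis, from 0) of the probe set that stands for each gene, in wild type (blue) and CHOP-/- (orange) cells untreated and after 4 h and 8 h of tunicamycin. Symbols are arrays A to D, and the bar is the mean with the SD of 4 arrays. Tgfb3 means run from 585.6 in wild type cells at 8 h to 2206 in untreated CHOP-/- cells, and the axes differ between genes.

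Tgfb3 was the ligand with the clearest pattern. In the probe set that stands for the gene it fell during tunicamycin treatment in both genotypes. It was also higher there in CHOP-/- than in wild type cells at every time. TGF-beta 3 is known for its part in palate closure and wound repair. Its signal in untreated wild type arrays A to D was 1516.8, 1003.8, 1529.9 and 1319.6. At 4 h it was 776.2, 624.9, 1203.8 and 979.5, and at 8 h it was 599.1, 566.8, 665.1 and 511.6. All 4 arrays at 8 h were therefore below all 4 untreated arrays, while 1 array at 4 h lay within the untreated range. The change at 8 h was -1.17 (SE 0.165, adjusted p = 2.24e-05), a level 2.25-fold lower. All changes are log2 values of signal plus 5.7 after quantile normalization, with p-values from limma adjusted over the 5662 genes. At 4 h the change was -0.61 (SE 0.165, adjusted p = 0.0503) and was not called. With the array letter as a block in a fit of the groups compared, the same change had an adjusted p of 0.0224.

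In CHOP-/- cells Tgfb3 started higher and fell too. Its signal in untreated arrays A to D was 2122.9, 2117.4, 2611.8 and 1970.2. At 4 h it was 1970.1, 1885.9, 1796.1 and 1593.6, and at 8 h it was 1381.7, 1673.1, 1532.7 and 1080.4. The 8 h group did not overlap the untreated one, and at 4 h the highest array reached almost exactly the lowest untreated signal. The change was -0.32 at 4 h (SE 0.165, adjusted p = 0.466) and -0.67 at 8 h (SE 0.165, adjusted p = 0.00686), and the call at 8 h ended with arrays centred on their medians (-0.55, adjusted p = 0.111). Against wild type cells, CHOP-/- cells had 0.75 more untreated (SE 0.165, adjusted p = 0.0203), 1.05 more at 4 h (adjusted p = 0.000629) and 1.26 more at 8 h (adjusted p = 6.47e-05), and the arrays of the genotypes did not overlap at any time. The untreated call ended without wild type array B (0.62, adjusted p = 0.11), CHOP-/- array A (0.73, adjusted p = 0.0728) or CHOP-/- array C (0.69, adjusted p = 0.0825), and with arrays centred on their medians (0.67, adjusted p = 0.295). Without arrays A and B of every group, the wild type arrays with high leukocyte markers among them, the difference was 0.69 untreated (adjusted p = 0.402), 0.64 at 4 h (adjusted p = 0.229) and 1.17 at 8 h (adjusted p = 0.0467).

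Tgfb2, a ligand known for roles in heart and craniofacial development, had signals of 40.5 to 369.4, all above the filter signal of 28.6, and it fell at 8 h in both genotypes. Untreated wild type arrays A to D gave 119.8, 66.3, 238.1 and 117.6. At 4 h they gave 91.7, 101.7, 144.7 and 107.4, and at 8 h 40.5, 57.8, 61.6 and 53.8. Every array at 8 h was below every other wild type array. The change at 8 h was -1.08 (SE 0.297, adjusted p = 0.0135), a level 2.12-fold lower, and without untreated array C, the highest of its group, it was -0.76 (adjusted p = 0.0663). The step from 4 h to 8 h was -0.88 (SE 0.297, adjusted p = 0.109), and with the array letter as a block in a fit of the groups compared its adjusted p was 0.00921.

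Untreated CHOP-/- arrays A to D gave Tgfb2 signals of 267.6, 125.3, 369.4 and 236.9. At 4 h they gave 185, 165.8, 116.1 and 184.5, and at 8 h 92.1, 113.7, 153.4 and 119. Untreated array B was within the 8 h range, so these groups overlapped. The change at 8 h was -0.94 (SE 0.297, adjusted p = 0.0348). It lost its call without untreated array A (-0.9, adjusted p = 0.0825), C (-0.72, adjusted p = 0.128) or D (-0.94, adjusted p = 0.0629), or without 8 h array A (-0.84, adjusted p = 0.105), B (-0.93, adjusted p = 0.0647) or D (-0.93, adjusted p = 0.0742). At 8 h CHOP-/- arrays lay above all wild type arrays by 1.03 (SE 0.297, adjusted p = 0.0484), a call that ended when any 1 of the 8 arrays of these groups, wild type A to D or CHOP-/- A to D, was left out (0.91 to 1.13, adjusted p 0.0509 to 0.146). The difference was 0.89 untreated (95% interval 0.28 to 1.5, adjusted p = 0.24) and 0.58 at 4 h (-0.03 to 1.2, adjusted p = 0.348).

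Tgfb1, the ligand most studied in fibrosis, showed no called change at either time in either genotype. Untreated wild type arrays A to D gave 636.1, 854.4, 415.7 and 581.2. At 4 h they gave 895.3, 627, 702.7 and 799.7, and at 8 h 712.1, 747.1, 613.7 and 557.9. The 3 groups overlapped, and the change at 8 h was 0.10 (95% interval -0.39 to 0.58, adjusted p = 0.843). In CHOP-/- cells the untreated arrays gave 1377.6, 726.1, 1681.1 and 711.8. At 4 h they gave 1175.9, 1316.4, 1176.2 and 1135.5, and at 8 h 1084.9, 1275.9, 904.5 and 920.5. Untreated arrays A and C stood above every array treated for 8 h, and untreated arrays B and D stood below them all. The change at 8 h was -0.04 (95% interval -0.52 to 0.45, adjusted p = 0.953), and it was 0.08 with arrays centred on their medians. CHOP-/- arrays lay above all wild type arrays at 4 h, by 0.68 (SE 0.235, adjusted p = 0.139), and at 8 h, by 0.64 (SE 0.235, adjusted p = 0.139), and neither difference was called. With the array letter as a block in a fit of the 8 h groups, the same 0.64 had an adjusted p of 0.0029. The untreated difference was 0.78 (95% interval 0.29 to 1.26, adjusted p = 0.164), with overlapping arrays.

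In the probe set that stands for the gene, Bmp1 differed between the genotypes and not, by the test, with tunicamycin. Its signals there were 329, 313.2, 430.7 and 563.7 in untreated wild type arrays A to D. At 4 h it gave 512.5, 280.7, 502 and 532.2, and at 8 h 218, 412.7, 355.4 and 375.9. In CHOP-/- arrays it gave 856.3, 557.5, 789 and 933 untreated. The 4 h signals were 930.6, 1067, 744.4 and 782.8, and the 8 h signals 760.2, 837.9, 852.9 and 856.4. Treated CHOP-/- arrays were all above all treated wild type arrays, and untreated CHOP-/- array B lay just below the highest untreated wild type array.

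The Bmp1 difference was 0.92 untreated (SE 0.221, adjusted p = 0.0433), 1.01 at 4 h (SE 0.221, adjusted p = 0.0123) and 1.30 at 8 h (SE 0.221, adjusted p = 0.000772), a level 2.46-fold higher at 8 h. The untreated call ended without wild type array A (0.82, adjusted p = 0.16), B (0.82, adjusted p = 0.187) or C (0.96, adjusted p = 0.0661), or without CHOP-/- array A (0.88, adjusted p = 0.134), C (0.9, adjusted p = 0.103) or D (0.83, adjusted p = 0.135). The call at 4 h ended without wild type array B (0.79, adjusted p = 0.0683). Without arrays A and B of every group the differences were 0.78 (adjusted p = 0.239), 0.58 (adjusted p = 0.229) and 1.21 (adjusted p = 0.0252). The tunicamycin changes at 8 h were -0.29 in wild type cells (95% interval -0.74 to 0.17, adjusted p = 0.435) and 0.09 in CHOP-/- cells (-0.37 to 0.54, adjusted p = 0.851).

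The second probe set of Bmp1 did not share the call of the first. Its mean signal was 445.4 ± 90.2 (SD, n = 4) in untreated wild type and 663 ± 151 in untreated CHOP-/- cells. At 4 h the means were 527.9 ± 159 and 611.1 ± 283, with 1 CHOP-/- array at 244.7, and at 8 h they were 450.7 ± 62.8 and 698.2 ± 58. In a fit of all 12422 probe sets that are not controls, its difference was 0.53 untreated (SE 0.271, adjusted p = 0.731), 0.12 at 4 h (adjusted p = 0.916) and 0.63 at 8 h (adjusted p = 0.319), where the arrays did not overlap. Both the call of a genotype difference in Bmp1 and its size are therefore uncertain between its probe sets.

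The second probe set of Tgfb3 was dim, and it moved the same way as the first. Its signal was 29.1 to 40.7 in untreated wild type arrays and 31.4 to 64.1 in untreated CHOP-/- arrays. At 8 h it was 2.1 to 21.4 in wild type arrays, all under 28.6, and 15.1 to 36.8 in CHOP-/- arrays. Among all 12422 probe sets its change at 8 h was -1.33 in wild type cells (SE 0.311, adjusted p = 0.00765) and -0.62 in CHOP-/- cells (adjusted p = 0.294), and the first of these is not an exact size because every wild type array at 8 h was under the filter signal. Its genotype difference at 8 h was 1.05 (SE 0.311, adjusted p = 0.0865). It was 0.34 untreated (adjusted p = 0.871) and 0.5 at 4 h (adjusted p = 0.571). None of these was called, and the arrays of the genotypes overlapped at each time.

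**Figure D2:**
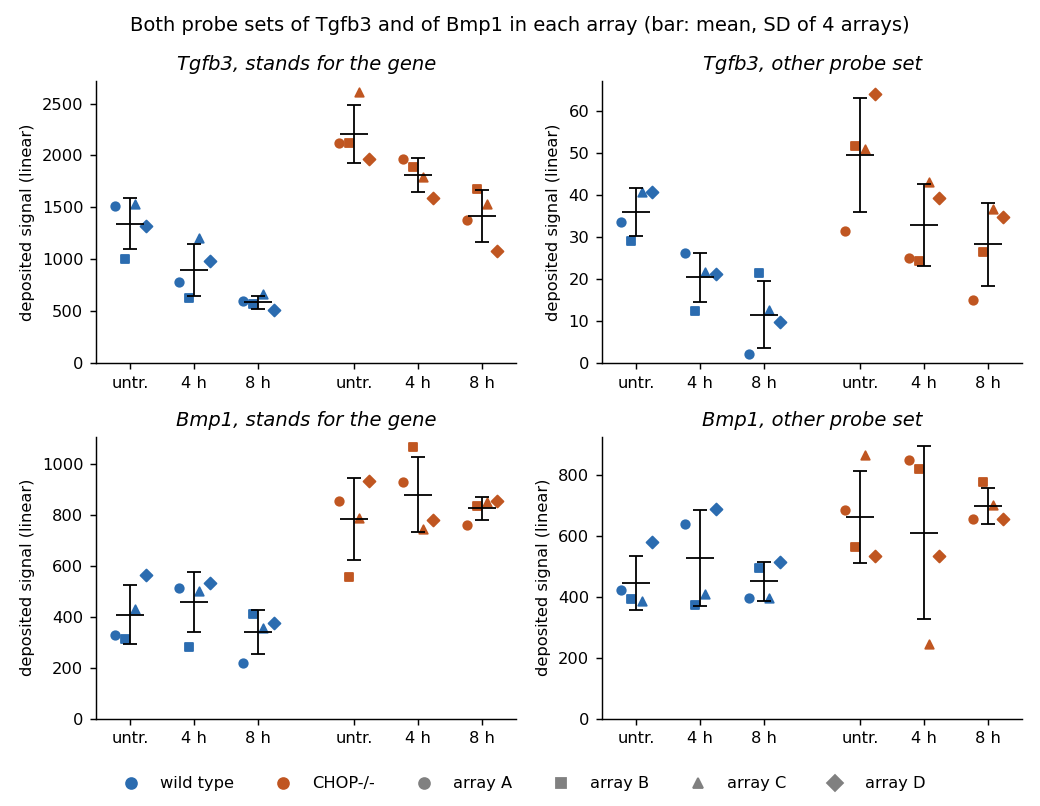
Deposited linear signal (vertical axis, from 0) of both probe sets of Tgfb3 (top) and of Bmp1 (bottom) in wild type (blue) and CHOP-/- (orange) arrays. Symbols are arrays A to D, and the bar is the mean with the SD of 4 arrays. The second Tgfb3 probe set reaches at most 64.1, and the genotypes lie closer together in the second Bmp1 probe set than in the first (698.2 and 450.7 against 826.8 and 340.5 at 8 h).

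Ccn1 fell between 4 h and 8 h in both genotypes. CCN1 is an immediate-early protein that supports fibroblast adhesion and can drive their senescence. Untreated wild type arrays A to D gave 2225.4, 1752.6, 2239 and 1628.1. At 4 h they gave 1603.3, 1816.2, 1983.1 and 1579.3, and at 8 h 1256.7, 935.3, 1310.8 and 864.1. All arrays at 8 h were below all arrays at the earlier times, which overlapped each other. The change at 8 h was -0.83 against untreated cells (SE 0.143, adjusted p = 0.000255) and -0.71 against 4 h (SE 0.143, adjusted p = 0.00494), the latter -0.62 with arrays centred on their medians (adjusted p = 0.11). The change at 4 h was -0.12 (95% interval -0.41 to 0.18, adjusted p = 0.892).

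In CHOP-/- arrays A to D, Ccn1 gave 1596.3, 1816.1, 1510.9 and 2278.5 untreated. At 4 h it gave 1979.4, 1769.2, 2149.7 and 1930.2, and at 8 h 1396.2, 1145.9, 1555.5 and 1273.4. The 8 h arrays were all below the 4 h arrays, and 1 of them, array C, lay within the untreated range. The change at 8 h was -0.43 against untreated cells (SE 0.143, adjusted p = 0.0463), and it was called in 7 of 20 other settings. Leaving out untreated array A (-0.47, adjusted p = 0.0603), B (-0.45, adjusted p = 0.0692) or D (-0.3, adjusted p = 0.178), or 8 h array A (-0.45, adjusted p = 0.0773), B (-0.36, adjusted p = 0.133) or D (-0.41, adjusted p = 0.102), ended that call. The change against 4 h was -0.52 (SE 0.143, adjusted p = 0.0334). It lost its call without 4 h array A (-0.51, adjusted p = 0.0527), C (-0.5, adjusted p = 0.11) or D (-0.51, adjusted p = 0.0851), or without 8 h array A (-0.53, adjusted p = 0.0634), B (-0.45, adjusted p = 0.0912) or D (-0.5, adjusted p = 0.0868). No genotype difference in Ccn1 was called: it was -0.07 untreated (95% interval -0.37 to 0.22), 0.13 at 4 h (-0.16 to 0.43) and 0.32 at 8 h (0.03 to 0.62, adjusted p = 0.241).

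Ccn2 had small changes that turned on the scaling of the arrays. CCN2 is a widely used readout of TGF-beta and YAP activity in fibroblasts. Untreated wild type arrays A to D gave 6307.9, 8287, 7666.3 and 6896.5. At 4 h they gave 4979, 6873.1, 7207.8 and 6367.2, and at 8 h 5783.5, 5126.4, 5220.4 and 5715.3. All 8 h arrays were below all untreated arrays, and the change was -0.29 (SE 0.0637, adjusted p = 0.00221), a level 1.23-fold lower. In CHOP-/- cells the untreated arrays gave 4750.6, 7181.4, 6804.3 and 4980.8, the 4 h arrays 8249.8, 6384.4, 7688.8 and 6223, and the 8 h arrays 6797.2, 8161.6, 5973 and 6793.8. These groups overlapped, and the change at 8 h was 0.03 (95% interval -0.11 to 0.16). CHOP-/- cells had 0.32 more than wild type cells at 8 h (SE 0.0637, adjusted p = 0.00429), without overlap. In wild type cells the step from 4 h to 8 h was -0.26 (SE 0.0637, adjusted p = 0.0198). That step lost its call without 4 h array B (-0.24, adjusted p = 0.0577), 8 h array B (-0.23, adjusted p = 0.0718) or 8 h array D (-0.24, adjusted p = 0.0631).

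Quantile normalization narrowed the spread of Ccn2 between arrays of a group, for example from an SD of 0.237 to 0.0702 (log2) in wild type cells at 4 h and from 0.305 to 0.106 in untreated CHOP-/- cells. With arrays only centred on their medians the wild type change at 8 h was -0.36 (SE 0.212, adjusted p = 0.31), and with the deposited scaling it was -0.41 (adjusted p = 0.0537). The genotype difference at 8 h was 0.32 (adjusted p = 0.569) and 0.34 (adjusted p = 0.231) in the same order. The untreated genotype difference was 0.00 after quantile normalization, -0.37 after median centring and -0.31 with the deposited scaling, none of them called. All 3 calls of Ccn2 therefore held only with quantile normalization among these scalings.

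Because the 6 genes were chosen with earlier results of these data known, their counts beside the shares of all genes are descriptions and no test of enrichment. Counted together, 4 of the 6 genes were called lower at 8 h in wild type cells (Tgfb2, Tgfb3, Ccn1, Ccn2) and none higher, where 6.99% of the 5662 genes were called lower. The 8 h arrays of these 4 genes also all lay below their untreated arrays, as in 8.65% of the 5662 genes. The median change of the 6 was -0.56, and that of all genes -0.02. At 8 h in CHOP-/- cells 3 of 6 were called lower (Tgfb2, Tgfb3, Ccn1), where 6.59% of genes were, and their median was -0.23 against -0.01. At 4 h 0 of 6 was called by limma in either genotype, where 2.14% of genes were called in wild type and 1.52% in CHOP-/- cells. Before adjustment, 632 and 658 of the 5662 genes passed 0.05 in limma's test at 4 h, and of the 6 only Tgfb3 in wild type cells did. With the array letter as a block in fits of the groups compared, 193 genes were called at 4 h and 1626 at 8 h in wild type cells, against 121 and 941 without it. From 4 h to 8 h, 2 of 6 were called lower in wild type cells (Ccn1, Ccn2; 2.05% of genes) and 1 of 6 in CHOP-/- cells (Ccn1; 2.14% of genes). With the letter as a block over all arrays Tgfb2 (adjusted p = 0.0407) and Tgfb3 (-0.56, adjusted p = 0.0311) were called lower from 4 h to 8 h in wild type cells as well, and a fit of those groups with the block called 425 genes against 234 without it.

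Between the genotypes, every call among the 6 was toward higher signals in CHOP-/- cells. Untreated, 2 of 6 were called higher (Tgfb3, Bmp1), where 0.618% of all genes were. At 4 h 2 of 6 were (Tgfb3, Bmp1), where 1.15% of genes were, and at 8 h 4 of 6 (Tgfb2, Tgfb3, Bmp1, Ccn2), where 2.28% were. At 8 h a fit of those groups with the letter as a block called 655 genes against 237 without it. The median differences of the 6 were 0.77, 0.63 and 0.84, and those of all genes 0.01, 0.01 and 0. The 3 tests between genotypes use the same arrays as the tests of tunicamycin, so the counts are not separate evidence. These counts too are descriptions, since the 6 genes were chosen with earlier results known. Markers of some other cell types also differed at 8 h. Of 4 leukocyte markers tested 0 were called by limma, and 0 had an unadjusted p under 0.05. Their median difference was -0.73, and that of all genes 0. The summed signal of leukocyte markers was 460.9 to 3176 in wild type and 417.5 to 1138 in CHOP-/- arrays, and these ranges overlapped. That of 6 endothelial markers was 122.2 to 164.3 in wild type and 211 to 321.8 in CHOP-/- arrays, and the 1 of them tested, Flt1, a VEGF receptor, was higher in CHOP-/- cells (1.16, adjusted p = 0.00177) and lower at 8 h in wild type cells (-0.71, adjusted p = 0.0234). That of 6 neural markers was 2376 to 3540 and 3646 to 4492, and of the 3 tested, Tubb3, a neuronal tubulin (0.73, adjusted p = 7.74e-05), and Ncam1, a cell adhesion molecule (0.72, adjusted p = 0.0239), were higher in CHOP-/- cells. Both were lower at 8 h in wild type cells, with changes of -0.41 for Tubb3 (adjusted p = 0.00613) and -0.69 for Ncam1 (adjusted p = 0.00912). The part of these markers in the counts was not tested.

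**Figure D3:**
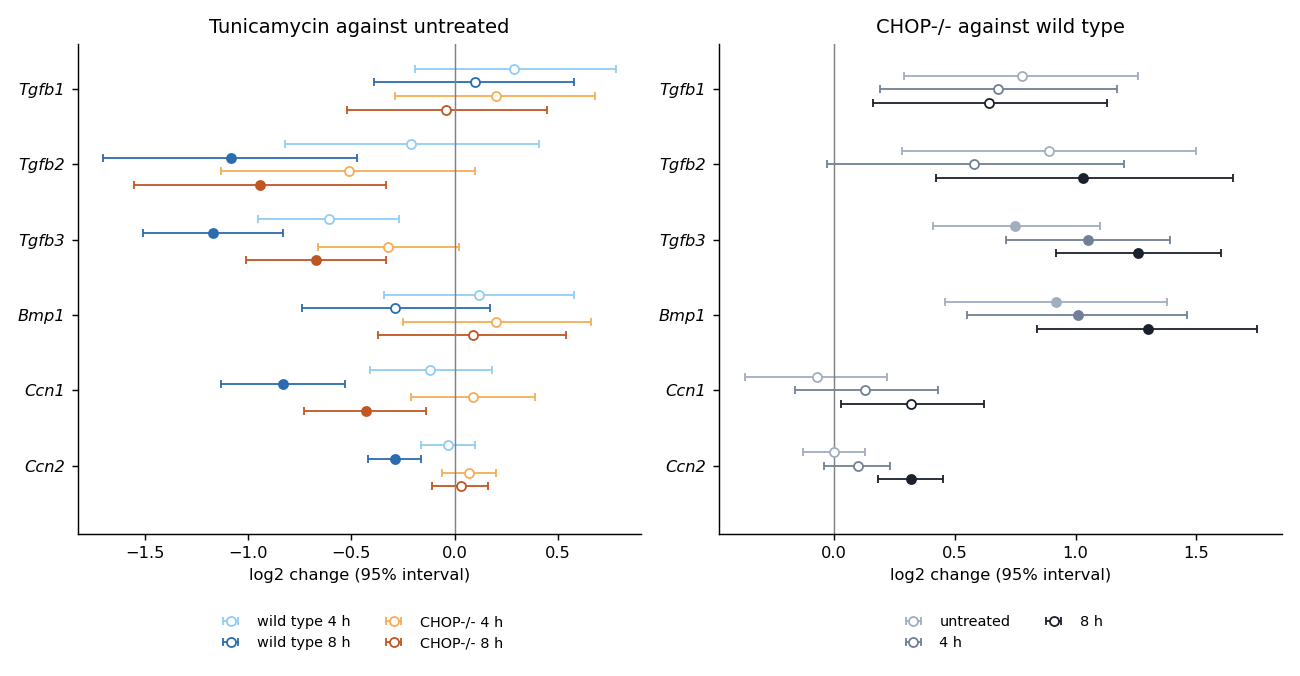
Log2 change (horizontal axis) with its 95% interval for each gene: tunicamycin against untreated cells by genotype and time (left) and CHOP-/- against wild type cells by time (right). Filled points were called at an adjusted p under 0.05, and open points were not. Tgfb3 lies at -1.17 and -0.67 at 8 h on the left and at 0.75, 1.05 and 1.26 on the right.

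Whether the response to tunicamycin itself differed between the genotypes was tested by subtracting the wild type change from the CHOP-/- change. Of the 6 genes 0 were called at 4 h, where limma called 0% of genes, and 0 at 8 h, where it called 0.0353% (2 genes). Before adjustment, 226 genes passed 0.05 at 4 h, none of the 6 among them, and 262 at 8 h, with Ccn2 and Tgfb3 among them. The 8 h difference was 0.32 for Ccn2 (95% interval 0.13 to 0.5, adjusted p = 0.629), 0.50 for Tgfb3 (0.02 to 0.98, adjusted p = 0.999) and 0.40 for Ccn1 (-0.02 to 0.82). It was 0.38 for Bmp1 (-0.27 to 1.02), 0.14 for Tgfb2 (-0.72 to 1.01) and -0.13 for Tgfb1 (-0.82 to 0.56). The smaller falls of Tgfb3 and Ccn1 in CHOP-/- cells were thus not shown to differ from those in wild type cells after adjustment.

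By mean signal, every CHOP-/- group stood above every wild type group for Tgfb1, Tgfb3 and Bmp1. For Tgfb1 and Bmp1 the groups next to each other at that step left a gap, which did not separate all arrays of the genotypes. For Tgfb1 the order was CHOP-/- 4 h (1201 ± 79.3), untreated (1124 ± 484) and 8 h (1046 ± 173), then wild type 4 h (756.2 ± 117), 8 h (657.7 ± 87.3) and untreated (621.8 ± 181). All neighbours overlapped except CHOP-/- 8 h and wild type 4 h. Untreated CHOP-/- arrays B (726.1) and D (711.8) lay within the range of each wild type group. Bmp1 ran from CHOP-/- 4 h (881.2 ± 148) to wild type 8 h (340.5 ± 85), with the only gap between neighbours from untreated CHOP-/- to wild type 4 h. Untreated CHOP-/- array B (557.5) lay below untreated wild type array D (563.7), and the second Bmp1 probe set left no gap between neighbours. Tgfb3 ran from untreated CHOP-/- cells (2206 ± 280), which did not overlap the next group, to wild type cells at 8 h (585.6 ± 64.1). Untreated wild type cells (1343 ± 245) had about the level of CHOP-/- cells at 8 h (1417 ± 254), and these overlapped. Tgfb2 ran from untreated CHOP-/- cells (249.8 ± 100) to wild type cells at 8 h (53.42 ± 9.19), the only group set apart from its neighbour. For Ccn1 the gap lay between wild type cells at 4 h (1745 ± 191) and CHOP-/- cells at 8 h (1343 ± 175), and for Ccn2 every group overlapped its neighbour.

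The other genes of the pathway, taken from lists, are counted beside the 6.99% of all genes called lower at 8 h in wild type cells, and every list gene called there was lower. The lists too were chosen with earlier results of these data known. Among 10 tested receptors and co-receptors 1 was lower, Bmpr1a, a type I BMP receptor (-0.77, adjusted p = 0.00547), and the list median was -0.13. Among 6 Smad genes 1 was lower, Smad7, the inhibitory Smad (-0.71, adjusted p = 0.00416). Among 12 genes of latency and activation 1 was lower, Mmp14, a membrane metalloproteinase, with a mean signal of 2146 ± 185 untreated and 1190 ± 144 at 8 h (-0.83, adjusted p = 0.000349). Of 11 negative regulators 2 were lower, Smad7 and Fst, the activin-binding follistatin (614.5 ± 78 and 147.3 ± 50, -2.1, adjusted p = 4.43e-06). Of 6 other ligands of the superfamily 1 was lower, Inhbb, an activin subunit (-0.98, adjusted p = 0.00672).

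Target lists held more calls. Of 25 transcripts reported to be raised by TGF-beta, without the 6 genes, 7 were lower and none higher at 8 h in wild type cells, with a median of -0.17. The 3 with the smallest adjusted p were Bhlhe40, a transcriptional repressor (956.4 ± 223 and 235.7 ± 73.3, -2.03), Timp3, a matrix metalloproteinase inhibitor (2289 ± 370 and 912.2 ± 210, -1.31), and Junb, an AP-1 subunit (-1.6). Of 15 reported serum response factor targets 8 were lower (median -0.55), among them Nr4a1, an immediate-early nuclear receptor (2505 ± 373 and 88.92 ± 34, -4.73, adjusted p = 5.05e-09), Junb and Fosb (-1.48). Of 11 reported YAP and TEAD targets 3 were lower (median -0.15), and they were F3, which encodes tissue factor (2775 ± 602 and 485.4 ± 182, -2.53), Ankrd1 (-1.3) and Birc5, a mitotic regulator (-0.84). Lists overlap, and Ccn1 and Ccn2 themselves belong to these last 3.

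Genes that act with BMP1 and the CCN proteins were counted in the same way, against the 6.99% of all genes called lower. Of 14 astacin proteinases and reported BMP1 substrates 2 were lower at 8 h in wild type cells, with a median of -0.24. The first was the procollagen gene Col3a1 (2777 ± 328 and 1646 ± 128, -0.71, adjusted p = 0.00898). The other was Tll1, a relative of BMP1 (-0.56, adjusted p = 0.0127), which lost its call without 8 h array B (-0.45, adjusted p = 0.0551). Of 3 other CCN genes, with a median of -1.25, 1 was lower, Ccn3 (122.8 ± 51.5 and 46.15 ± 18.9, -1.29, adjusted p = 0.0374). Its call ended without untreated array C (-1.13, adjusted p = 0.106) or D (-1.1, adjusted p = 0.116), or without 8 h array A (-1.35, adjusted p = 0.0552), B (-1.02, adjusted p = 0.128) or D (-1.24, adjusted p = 0.0863). None of 8 integrin, syndecan and LRP genes that serve as CCN receptors was called by limma (median -0.12), and 1 had an unadjusted p under 0.05.

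**Figure D4:**
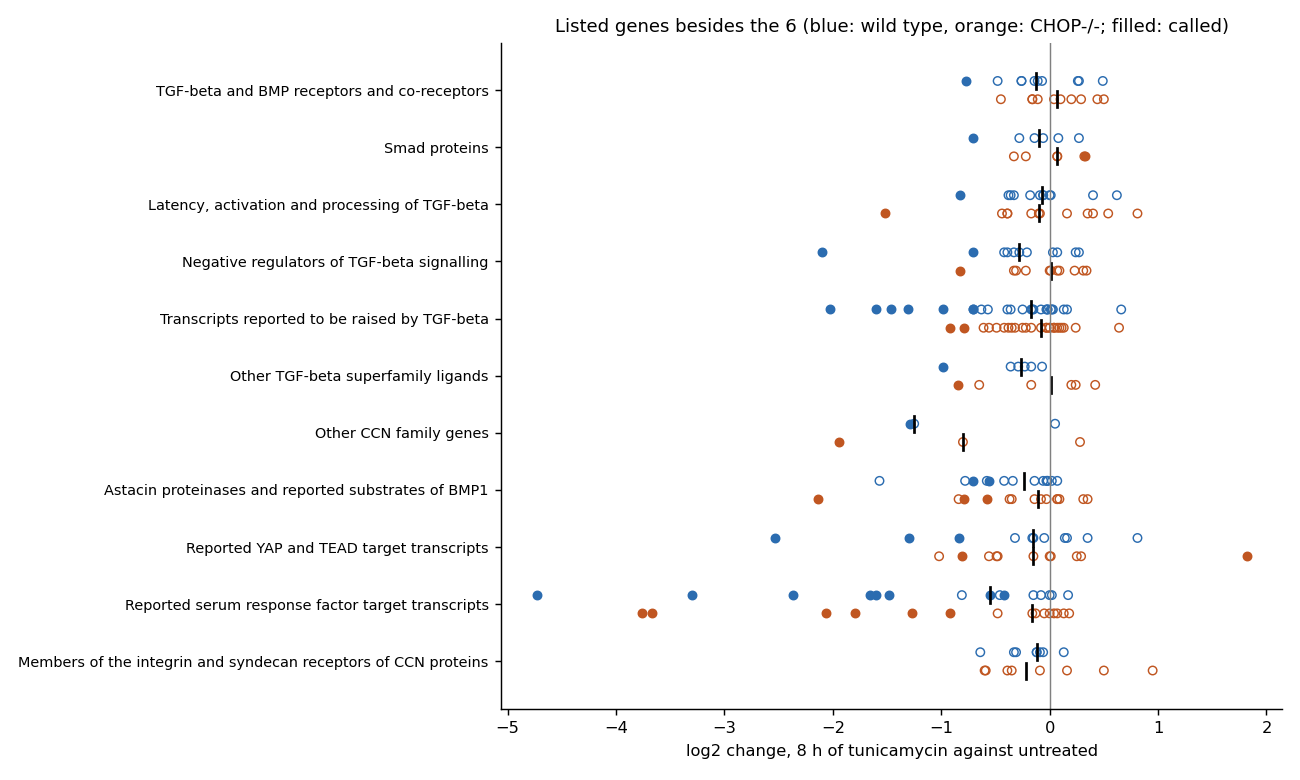
Log2 change at 8 h of tunicamycin against untreated cells (horizontal axis) of every tested gene of each list other than the 6, in wild type (blue) and CHOP-/- (orange) cells. Filled points were called, open points were not, and the black bar is the list median. In the list of serum response factor targets 8 points are filled for wild type and 6 for CHOP-/- cells, with Nr4a1 lowest in both at -4.73 and -3.76.

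In CHOP-/- cells at 8 h the same lists gave fewer calls for TGF-beta targets and about as many for serum response factor targets, and these differences in count were not tested. Of all genes 6.59% were called lower in that comparison and 7.35% higher. Of the 25 TGF-beta targets 2 were lower (median -0.08), Col3a1 among them (-0.79, adjusted p = 0.00445), which was -0.63 with arrays centred on their medians (adjusted p = 0.0649). Of the 15 serum response factor targets 6 were lower (median -0.16), led by Nr4a1 (-3.76, adjusted p = 2.33e-07), Fos (-3.67, adjusted p = 0.000426) and Fosb (-1.27, adjusted p = 0.00207). Of the 11 YAP and TEAD targets Birc5 was lower (-0.81, adjusted p = 0.00546) and Gadd45b, a stress-induced regulator of growth arrest, was higher (1.82, adjusted p = 0.000148). Of the 12 latency genes 1 was lower, Fbn2, which encodes the microfibril protein fibrillin 2 (-1.52, adjusted p = 8.9e-05), whose 8 h signals of 12.6 to 28.8 lay at or under the filter signal, so that the change is not an exact size. Of the 10 receptors 0 were called by limma, and 3 had an unadjusted p under 0.05.

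The remaining lists held both directions in CHOP-/- cells at 8 h, beside the same 6.59% of all genes called lower and 7.35% higher. Of 6 Smad genes Smad2, which carries the TGF-beta signal to the nucleus, was higher (0.33, adjusted p = 0.0388, list median 0.07). Of 11 negative regulators Fst was lower (559.6 ± 148 untreated and 321 ± 103 at 8 h, -0.83, adjusted p = 0.0333, list median 0.01). Of 6 other ligands Bmp4, a bone morphogenetic protein, was lower (123 ± 67 and 56.7 ± 5.71, -0.85, adjusted p = 0.0232, list median 0.02). Of 3 other CCN genes Ccn5 was lower (521.8 ± 144 and 135.4 ± 58.5, -1.94, adjusted p = 0.0387, list median -0.8). Of 14 astacin and BMP1 substrate genes 3 were lower (median -0.11), Col3a1, the procollagen gene Col5a1 (-0.58, adjusted p = 0.0235) and Ogn, which encodes the small proteoglycan osteoglycin (326.2 ± 123 and 71.88 ± 38.5, -2.14, adjusted p = 0.03). These calls, other than that of Col3a1, ended when some single arrays were left out. For Smad2 they were untreated A, B and C and 8 h B, C and D (0.26 to 0.35, adjusted p 0.0546 to 0.143), and for Fst untreated A, B and C and 8 h D (-0.88 to -0.56, adjusted p 0.0502 to 0.158). For Bmp4 they were untreated A and C and 8 h D (-0.84 to -0.54, adjusted p 0.0553 to 0.102), and for Ccn5 all 4 untreated arrays and 8 h A, B and C (-2.07 to -1.65, adjusted p 0.0553 to 0.113). For Col5a1 they were untreated A and C and 8 h A and C (-0.56 to -0.44, adjusted p 0.0627 to 0.0982), and for Ogn untreated B, C and D and 8 h A, B and D (-2.21 to -1.8, adjusted p 0.0539 to 0.0941). None of the 8 CCN receptor genes was called by limma (median -0.22), and 2 had an unadjusted p under 0.05.

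Between the genotypes at 8 h, list genes that were called were all higher in CHOP-/- cells, as with the 6. Of all genes 2.28% were called higher there and 1.91% lower. Of 12 latency genes 2 were higher, with a median of 0.49, among them Ltbp1, a latent TGF-beta binding protein (836.3 ± 231 against 383.6 ± 105, 1.12, adjusted p = 0.00074). The other, Mmp14 (0.57, adjusted p = 0.0296), lost its call in 6 of 8 fits with 1 array left out. Of 25 TGF-beta targets 5 were higher (median 0.27). They included Cdkn2b, a cyclin-dependent kinase inhibitor (665.9 ± 81.7 against 266.2 ± 29.1, 1.31, adjusted p = 0.00011), and Bhlhe40 (675.3 ± 89.1 against 235.7 ± 73.3, 1.55, adjusted p = 0.00502). The others were Sphk1 (0.94, adjusted p = 0.0296), Lox (0.27, adjusted p = 0.0365) and Smad7 (0.58, adjusted p = 0.0484). Their calls ended in 4, 6 and 7, in that order, of 8 fits with 1 array left out. Of 14 astacin and BMP1 substrate genes 3 were higher (median 0.20), Tll1 among them (769.4 ± 37.8 against 453.2 ± 82.6, 0.77, adjusted p = 0.00392) beside Ltbp1. Of 11 negative regulators 2 were higher, Smad7 and Fst (1.08, adjusted p = 0.0186), and the call of Fst ended in 4 of 8 such fits. None of 10 receptors, 11 YAP and TEAD targets and 15 serum response factor targets was called by limma, with 2, 4 and 5 of them at an unadjusted p under 0.05. Without arrays A and B of every group the difference was 1.4 for Ltbp1 (adjusted p = 0.095), 1.15 for Cdkn2b (adjusted p = 0.113), 1.23 for Bhlhe40 (adjusted p = 0.421) and 0.69 for Tll1 (adjusted p = 0.287). Untreated, Igfbp3, which encodes an insulin-like growth factor binding protein, was the only TGF-beta target called (240.3 ± 32.2 against 90.35 ± 29.9, 1.37, adjusted p = 0.00213). In untreated cells 0.618% of all genes were called higher.

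At 4 h list genes were called in both directions between the genotypes, where 1.15% of all genes were called higher and 1.29% lower. Higher in CHOP-/- cells were Cdkn2b (782.6 ± 64 against 396.2 ± 55.1, 1.01, adjusted p = 0.0026) and Igfbp3 (167.8 ± 19 against 89.82 ± 33, 0.96, adjusted p = 0.0264). Lower in CHOP-/- cells were the activin receptor gene Acvr2a (-0.76, adjusted p = 0.03), 1 of 10 receptors, and Tgif1, a repressor of Smad-driven transcription (-0.57, adjusted p = 0.031), which is on the lists of negative regulators and of TGF-beta targets. The Acvr2a call ended without wild type array A or C or CHOP-/- array C or D (-0.74 to -0.63, adjusted p 0.0838 to 0.124). The Tgif1 call ended without wild type array A or C or any 1 CHOP-/- array (-0.6 to -0.51, adjusted p 0.0552 to 0.101), and that of Igfbp3 without wild type array A or C or CHOP-/- array B or C (0.75 to 0.91, adjusted p 0.0575 to 0.104).

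The genes whose levels ran most like each of the 6 were ranked by Pearson correlation over the 24 arrays, which share groups and normalization, so these values are descriptions. Tgfb2 and Tgfb3 ran together (r = 0.862), and this was the highest of the 15 pairs among the 6 genes. The lowest was Tgfb1 with Ccn1 (r = 0.013). Nearest to Tgfb3 were Tinagl1 (r = 0.9), Cdkn2b (0.895) and Rcan3 (0.893), and nearest to Tgfb2 were Anxa8 (0.875), Tgfb3 and Slc12a7 (0.848). Nearest to Tgfb1 were Tesk1 (0.86), Ak1 (0.858) and Pdlim7 (0.844), and nearest to Bmp1 were Col15a1 (0.892), Uchl1 (0.858) and Pde4dip (0.855). Ccn1 ran nearest to F3 (0.93), Errfi1 (0.901) and Nr4a1 (0.887), and Ccn2 to Smad7 (0.85), Ptgs2 (0.828) and Phlda1 (0.771). At 8 h in wild type cells the changes of these last 6 were -2.53, -2.72 and -4.73 for F3, Errfi1 and Nr4a1 and -0.71, -1.26 and -1.7 for Smad7, Ptgs2 and Phlda1, beside -0.83 for Ccn1 and -0.29 for Ccn2.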

How the data were processed

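The authors deposited 1 table of linear signals (unit: intensity), given to 1 decimal for 12488 probe sets on 24 arrays. From the values, every array had been scaled to a mean of 250.1 to 250.2 after 2% of probe sets were trimmed at each end. The sources used here name neither software nor scanner settings. The 66 control probe sets were left out. Of the rest, 10833 had 1 gene in the array's gene table, and 10817 of them were matched to RefSeq (GRCm38.p6) by gene identifier, giving 8251 genes. Where a gene had several, its brightest probe set on average was used.

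From these signals log2(signal + 5.7) was computed, with the 20th percentile of all signals as pseudocount, so that log2 changes understate those of dim genes. Values were quantile normalized, and genes were tested if their mean lay above 5.1 (log2), the 40th percentile, equal to a signal of 28.6. A model of 6 group means came from limma 3.58.1 (R 4.3.3), moderated with an intensity trend (18 residual and 5.2 prior degrees of freedom). Two-sided p-values were adjusted by the Benjamini-Hochberg method within each of 11 contrasts over 5662 genes, and a gene was called under 0.05. Second probe sets were tested in a fit of all 12422 probe sets without the filter. The fit was tested on simulated data. Precision is limited by having 4 arrays in each group. The median standard error was 0.189.

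The 6 genes and the lists were chosen with earlier results of these data known. The named list genes were up to 3 with the smallest adjusted p among those called, per list and contrast, and the 3 tested genes most correlated with each of the 6. Promoters came from RefSeq (GRCm38.p6). Whether array letters pair arrays was checked from the correlation of deviations from group means, since the labels give the letters no meaning. Between arrays of the same letter it was over 0.1 in every pair for the wild type comparisons (0.25 to 0.619) and for the genotypes at 8 h (0.289 to 0.546), and not for the others (-0.344 at the lowest). Arrays of unlike letters were not compared, so these values do not show that the letters pair arrays. Alternatives changed the pseudocount, the filter, the scaling, the weights, the trend, the block, the samples in the fit, the probe sets and single arrays. Figures were drawn with matplotlib 3.10.9 in Python 3.11.15.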

Additional observations from a re-analysis of the deposited data

Results flagged for a closer look

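In wild type cells at 4 h, Bmp1 had a signal of 280.7 in array B, and the nearest of the other 3 arrays was at 502, so that array stood far from its group. It was the only such array among 48 combinations of probe set and group, where chance alone gives about 1 in 20. Without it the Bmp1 difference between the genotypes at 4 h was 0.79 (adjusted p = 0.0683) in place of 1.01 (adjusted p = 0.0123). Array B also carried the highest leukocyte marker sum of that group (3367), and the part of this in the Bmp1 signal was not tested.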

How the results depend on the processing

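Over the 6 genes and 11 contrasts, 1428 values were recomputed under other settings. Of these 1288 kept their direction and side of the threshold, 92 lost a call, 14 gained one and 34 changed sign, none of the last a called value. Of 18 calls 3 held in every setting: Tgfb3 at 8 h in wild type cells (-1.3 to -1.11) and the 8 h genotype differences of Tgfb3 (1.17 to 1.38) and Bmp1 (1.1 to 1.53). These hold for the probe set that stands for each gene. In limma's fit of all probe sets, the second ones of Bmp1 (0.63, adjusted p = 0.319) and Tgfb3 (1.05, adjusted p = 0.0865) were not called for that difference. The second Tgfb3 probe set was called lower at 8 h in wild type cells (-1.33, adjusted p = 0.00765). With 4 arrays a group, changes near the SE of a gene were not detectable.

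The number of the 6 genes called moved as follows. At 4 h in wild type cells it was 0, and 1 with array weights, 1 with the replicate block and 1 with the replicate block in the groups compared, with 0 to 1 when 1 array was left out. At 8 h in wild type cells it was 4, and 1 without arrays A and B of every group, and 3 to 4 with 1 array left out. At 8 h in CHOP-/- cells it was 3, and 1 without the filter, 0 with arrays centred on the median, 0 without arrays A and B, and 1 to 3 with 1 array left out. From 4 h to 8 h in wild type cells it was 2. It was 0 with median centring, 1 with the deposited scaling, 1 without the intensity trend, 4 with the replicate block, 1 in a fit of only the groups compared, 0 without wild type 4 h arrays A and C, 0 without arrays A and B, and 1 to 2 with 1 array left out. From 4 h to 8 h in CHOP-/- cells it was 1, and 0 with median centring, 0 with the replicate block in the groups compared, 0 without arrays A and B, and 0 to 1 with 1 array left out. For the untreated genotype difference it was 2, and 1 without the filter, 0 with median centring, 0 with only the groups compared, 0 with the replicate block there, 0 without arrays A and B, and 0 to 2 with 1 array left out. At 4 h it was 2, and 1 with only the groups compared, 1 with the replicate block there, 0 without arrays A and B, and 1 to 2 with 1 array left out. At 8 h it was 4, and 2 with median centring, 2 without the intensity trend and 2 without arrays A and B. It was 3 whichever 1 array of the 8 h groups was left out. The causes were not tested, and fits with fewer arrays have a larger error by construction.

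The values that changed sign were small and not called. Without arrays A and B of every group, the CHOP-/- changes of Bmp1 were -0.15 (4 h), -0.03 (8 h) and 0.12 (from 4 h to 8 h), and Bmp1 was -0.2 for the response difference at 4 h, where Tgfb3 was -0.05, and Ccn1 was 0.03 between untreated genotypes. Without wild type 4 h arrays A and C, Bmp1 was -0.07 at 4 h in wild type cells. With median centring, Tgfb1 was 0.08 at 8 h and Ccn2 was 0.04 from 4 h to 8 h in CHOP-/- cells. With array weights, Ccn2 was -0.01 at 8 h in CHOP-/- cells and Tgfb1 was 0.08 for the response difference at 4 h. With 1 array left out, Tgfb1 ranged from -0.08 to 0.26 at 8 h in wild type cells, -0.01 to 0.43 at 4 h and -0.24 to 0.19 at 8 h in CHOP-/- cells, and -0.3 to 0.13 and -0.33 to 0.1 for the response differences at 4 h and 8 h. Tgfb2 ranged from -0.45 to 0.11 at 4 h in wild type cells and -0.17 to 0.38 for the response difference at 8 h. Bmp1 ranged from -0.06 to 0.18 at 8 h in CHOP-/- cells and -0.13 to 0.19 for the response difference at 4 h. Ccn2 ranged from -0.02 to 0.06 at 8 h in CHOP-/- cells, and Ccn1 from -0.2 to 0.02 between untreated genotypes.

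Over all genes, the number called ranged with the setting from 8 to 193 around 121 at 4 h and from 216 to 1626 around 941 at 8 h in wild type cells, from 3 to 126 around 86 and from 147 to 1025 around 789 in CHOP-/- cells, and from 8 to 425 around 234 and from 88 to 412 around 317 from 4 h to 8 h in the 2 genotypes. Between genotypes it ranged from 7 to 88 around 56 untreated, 15 to 200 around 138 at 4 h and 16 to 655 around 237 at 8 h, and for response differences from 0 to 1 around 0 and from 0 to 5 around 2. In the comparisons where the same-letter correlation was not over 0.1 in every pair, the replicate block in the groups compared called 8 genes at 4 h, 525 at 8 h and 88 from 4 h to 8 h in CHOP-/- cells, and 7 untreated and 114 at 4 h between genotypes. There it ended the calls of Ccn1 at 8 h (-0.43, adjusted p = 0.13) and from 4 h to 8 h (-0.52, adjusted p = 0.0594) in CHOP-/- cells, and of Tgfb3 (0.75, adjusted p = 0.0807) and Bmp1 (0.92, adjusted p = 0.107) untreated and Bmp1 (1.01, adjusted p = 0.0501) at 4 h between genotypes. For the 6 genes it changed no other call than these and those beside the results. The replicate block in the groups compared, leaving out wild type 4 h arrays A and C, and leaving out arrays A and B were chosen after seeing the data.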
